A study of Mus musculus with 24 samples.

Results

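The genes described here are 10 natural killer and cytotoxic effector genes: Gzma, Gzmb, Prf1, Xcl1, Ncr1, Nkg7, Tbx21, Eomes, Ccl5 and Fasl. They were taken by gene name from the array design, which gave 13 probes of 41174 gene probes, for 10 of 28786 gene names. Of the 10 genes, 9 were bright enough to be tested with 24784 genes in all. Ncr1 was not.

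The thymus of C57BL/6 mice aged 15 weeks was compared between 4 genotypes, with 6 mice each. They were wild type mice, p27 knockout mice (which lack Cdkn1b, whose product p27 holds back the cell cycle), stathmin knockout mice (which lack Stmn1, whose product takes microtubules apart) and double knockout mice that lack both. Each genotype held 3 females and 3 males, and the labels do not say which mouse was which sex. Each array carried the thymus RNA of 1 mouse in the Cy5 channel and a common pool of fibroblast RNA from every genotype in the Cy3 channel, in the same dye orientation throughout. The labels name no Cre driver and no tissue limit for either deletion.

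Cytotoxic lymphocytes kill by releasing granules. Perforin (Prf1) opens the membrane of the target cell, and the granzymes (Gzma, Gzmb) are serine proteases that then enter it, while the death ligand Fasl kills from the cell surface through its receptor Fas. The transcription factors T-bet (Tbx21) and eomesodermin (Eomes) drive this programme in natural killer cells and effector T cells, and the chemokines Xcl1 and Ccl5 are released by the same cells. In the thymus such cells are a small minority among developing T cells, so these genes read a rare population in whole-tissue RNA.

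The promoters of the 4 genes whose level passed the test in any comparison are shown. These genes also moved together from mouse to mouse, which was not particular to them. RefSeq promoters (build GRCm38.p6, 250 bases before to 50 bases after the start, 300 bases each) were given for 9 of the 10 genes, all but Ccl5. Capitals mark 4 short motifs searched on both strands, none of which overlapped another in the printed windows. They are the letters TGTGGT of a Runx core, GTGTGA of a T-box core, TGANTCA of an AP-1 site and GGAAAA of an NFAT core.
Gzmb, chr14:56262285-56262584, minus strand: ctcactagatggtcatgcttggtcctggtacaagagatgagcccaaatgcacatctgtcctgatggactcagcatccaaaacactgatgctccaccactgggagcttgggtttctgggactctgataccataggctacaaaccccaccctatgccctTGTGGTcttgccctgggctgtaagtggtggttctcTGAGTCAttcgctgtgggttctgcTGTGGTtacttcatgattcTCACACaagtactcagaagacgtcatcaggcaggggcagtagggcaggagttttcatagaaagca
Prf1, chr10:61297586-61297885, plus strand: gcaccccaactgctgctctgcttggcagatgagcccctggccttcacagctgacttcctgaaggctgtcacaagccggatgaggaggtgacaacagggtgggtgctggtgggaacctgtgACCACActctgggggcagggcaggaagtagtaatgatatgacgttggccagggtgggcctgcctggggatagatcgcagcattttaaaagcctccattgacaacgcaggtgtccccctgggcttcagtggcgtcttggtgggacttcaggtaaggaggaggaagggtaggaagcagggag
Xcl1, chr1:164935473-164935772, minus strand: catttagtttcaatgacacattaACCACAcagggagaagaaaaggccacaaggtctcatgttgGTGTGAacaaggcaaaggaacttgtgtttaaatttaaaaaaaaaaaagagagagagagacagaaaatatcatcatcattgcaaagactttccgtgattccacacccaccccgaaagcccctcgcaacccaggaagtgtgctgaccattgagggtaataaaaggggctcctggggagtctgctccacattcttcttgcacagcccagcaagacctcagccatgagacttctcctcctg
Fasl, chr1:161788446-161788745, minus strand: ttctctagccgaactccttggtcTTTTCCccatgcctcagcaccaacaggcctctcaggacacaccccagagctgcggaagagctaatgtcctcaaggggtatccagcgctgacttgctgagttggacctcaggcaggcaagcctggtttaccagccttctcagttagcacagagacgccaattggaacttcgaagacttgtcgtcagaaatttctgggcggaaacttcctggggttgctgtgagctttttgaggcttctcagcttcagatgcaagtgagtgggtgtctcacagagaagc

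The Gzmb window held the Runx letters at 93 and 34 bases before the start, the AP-1 letters at 58 and the T-box letters at 15. In Prf1 the Runx letters lay 130 bases before the start. In Xcl1 they lay at 227 and the T-box letters at 187. In Fasl the NFAT letters lay at 227 bases before the start. Over the 9 genes, the Runx letters stood in 6 (Gzma, Gzmb, Prf1, Xcl1, Ncr1 and Nkg7), against 16.8% of 32851 promoters. The T-box letters stood in 4 (Gzmb, Xcl1, Ncr1 and Nkg7), against 14.5%. The NFAT letters stood in 2 (Gzma and Fasl), against 23.4%, and the AP-1 letters in 1, against 7.81%. A match of 6 or 7 letters is a description of the sequence and not a binding site.

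The 24 arrays differed in brightness by genotype. The 99th percentile of Cy5 intensity ran from 19.4 to 171 kilounits on the p27 knockout arrays, from 56.3 to 286 on wild type, from 131 to 340 on stathmin knockout and from 200 to 320 on double knockout arrays, so every double knockout array was brighter than every p27 knockout array. Replicates 5 and 6 of the p27 knockout stood apart. Across genes, their mean correlation with the rest of the arrays was 0.591 and 0.212, where each of the 22 others reached 0.780 to 0.866. The 10 markers of double-positive thymocytes had a median log2 ratio of 0.28 in replicate 6 against 7.45 in replicate 5 and 5.05 to 6.73 over the wild type and stathmin knockout arrays. Results that rest on the p27 knockout are therefore also given for the 22 other arrays. The arrays lay on 6 slides with 1 array of each genotype per slide. A genotype kept its place on every slide, so the effects of place and genotype cannot be told apart. The deleted genes were low in their knockouts: Cdkn1b had a mean log2 ratio of 1.80 ± 0.35 (SD, n = 5) in wild type and 1.64 ± 0.40 (n = 6) in the stathmin knockout, against 0.30 ± 0.57 (n = 6) in the p27 and -0.50 ± 0.88 (n = 5) in the double knockout. Stmn1 had 2.45 ± 0.87 (n = 6) in the p27 knockout, against -2.95 ± 0.75 in the stathmin and -3.19 ± 0.36 in the double knockout.

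Most of the effector genes were measurable in the thymus of every genotype. The Cy5 signal was well above background on 24 of 24 arrays for Prf1, Nkg7, Tbx21, Ccl5 and Fasl. It was so on 23 arrays for Gzma, Gzmb and Xcl1 and on 21 for Eomes. Ncr1, which encodes the natural killer receptor NKp46, was well above background on 2 wild type and 1 p27 knockout array and on no stathmin or double knockout array. Of 8 natural killer markers, 6 were measurable (Klrb1c, Klrd1, Il2rb, Tyrobp, Nkg7 and Prf1), while Itga2 and Ncr1 were not. The measurable ones include granule, receptor and adaptor genes that T cells can also make. Less RNA per cell and fewer cells of a type cannot be told apart in whole-tissue RNA.

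The fibroblast channel was close to background for several of these genes. Cy3 was well above background on 0 of 24 arrays for Eomes and Fasl, on 2 for Prf1, 3 for Gzma, 5 for Xcl1 and 12 for Gzmb, against 18 for Tbx21, 23 for Nkg7 and 24 for Ccl5. Log2 ratios are given per probe, and a level of 1 gene is not set against that of another.

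**Figure D1:**
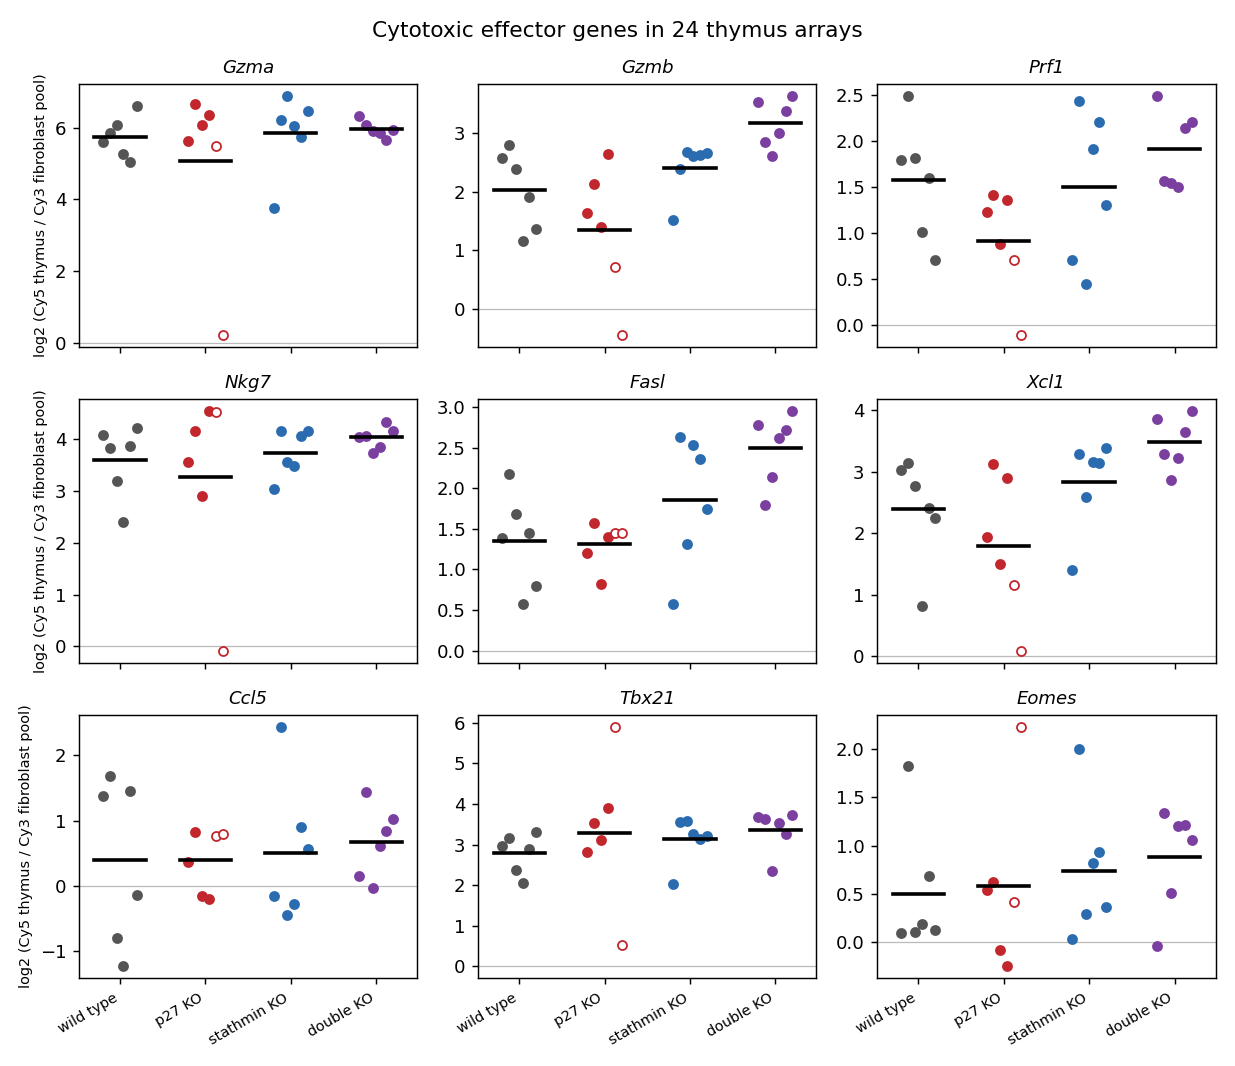
Log2 ratio of Cy5 (thymus) over Cy3 (fibroblast pool) for 9 genes, 1 point per array and 6 arrays per genotype; black lines are means of all 6 arrays and open points are p27 knockout replicates 5 and 6. All 9 genes have their highest mean in the double knockout, and the open points of Gzma and Nkg7 in replicate 6 lie near 0.

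Gzmb, Xcl1, Fasl and Prf1 were higher in the double knockout than in the p27 knockout, by 1.99-fold to 3.54-fold. These were 4 of the 9 tested genes, where 9.70% of all genes tested were called higher and 28.8% in either direction. Without p27 knockout replicates 5 and 6 they were 2 of 9, Gzmb and Fasl, where 3.97% were called higher and 14.3% in either direction. With Agilent's own log ratios Gzmb still passed, while Prf1 (0.93, limma adjusted p = 0.126), Xcl1 (1.09, 0.137) and Fasl (0.91, 0.0678) did not, and with Cy5 alone Fasl (0.63, 0.106) did not. At an unadjusted p under 0.05 they were 4 of 9, where 42.6% of all genes were. None of the 9 genes passed the test against wild type in any knockout, or between the double and the stathmin knockout. Each of the 4 genes also followed the brightness of the arrays, and none passed once brightness entered the fit, as described after the single genes.

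Gzmb, the granzyme that cleaves caspases in the target cell, rose most. Its log2 ratio ran from 1.15 over a median of 2.14 to 2.79 in wild type, from -0.45 over 1.51 to 2.65 in the p27 knockout, from 1.51 over 2.62 to 2.68 with stathmin lost and from 2.61 over 3.19 to 3.64 in the double knockout. The double knockout lay highest as a group and overlapped the p27 knockout at 1 array, p27 knockout replicate 4 at 2.65. Gzmb was higher by 1.82 ± 0.39 (SE) on the log2 scale, 3.54-fold (limma adjusted p = 0.00450), on 6 of 6 slides. Without p27 knockout replicates 5 and 6 the difference was 1.22 ± 0.32, 2.32-fold (limma adjusted p = 0.0253), on 4 of 4 slides, with differences of 0.87 to 2.25. In order of their means the genotypes stood at 1.34 ± 1.10 (SD, n = 6, p27 knockout), 2.03 ± 0.67 (wild type), 2.41 ± 0.45 (stathmin knockout) and 3.17 ± 0.41 (double knockout). No step between neighbours in that order passed the test (limma adjusted p = 0.243, 1.00 and 1.00).

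Prf1, the pore-forming protein that the granzymes depend on, rose less. Its log2 ratio ran from 0.71 over a median of 1.69 to 2.49 in wild type, from -0.11 over 1.06 to 1.41 in the p27 knockout, from 0.44 over 1.61 to 2.43 with stathmin lost and from 1.50 over 1.85 to 2.49 in the double knockout. All 6 double knockout arrays lay above all 6 p27 knockout arrays, while wild type and stathmin knockout arrays spread over the range of both. Of all genes, 4.08% did not overlap in this direction, and of the 9 tested here 2 did not, Prf1 and Fasl. The difference was 0.99 ± 0.35, 1.99-fold (limma adjusted p = 0.0376), and was above 0 on 6 of 6 slides.

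The call for Prf1 rested on single arrays. Without p27 knockout replicates 5 and 6 it was 0.68 ± 0.36 (limma adjusted p = 0.181). Leaving out 1 array at a time, it was lost without p27 knockout replicate 3, 5 or 6 (limma adjusted p = 0.0569, 0.0677 and 0.0826) and without double knockout replicate 1, 5 or 6 (0.0817, 0.0675 and 0.0704), with differences from 0.79 to 1.09 over all 24 such fits. The means were 0.91 ± 0.57 (SD, n = 6) in the p27 knockout, 1.50 ± 0.81 for the stathmin knockout, 1.57 ± 0.63 for wild type and 1.90 ± 0.42 for the double knockout. The step between the p27 and the stathmin knockout was not tested, and the other steps did not pass (limma adjusted p = 1.00 each).

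Gzma, a granzyme with trypsin-like specificity, did not pass in any comparison. Its log2 ratio ran from 5.03 over a median of 5.73 to 6.61 in wild type, from 0.23 over 5.84 to 6.65 in the p27 knockout, from 3.77 over 6.12 to 6.89 with stathmin lost and from 5.66 over 5.92 to 6.32 in the double knockout. The 4 genotypes overlapped, apart from single low arrays, p27 knockout replicate 6 at 0.23 and stathmin knockout replicate 1 at 3.77. The double minus p27 difference was 0.89 (95% interval -0.62 to 2.41, limma adjusted p = 0.358). On the 22 arrays that leave out p27 knockout replicates 5 and 6 it was -0.21. Gzma and Gzmb were 0.661 correlated over 24 arrays and 0.315 over the 22 without those replicates.

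Nkg7, a granule membrane protein needed for granule release, was measured by a pair of probes. On the brighter one the log2 ratio had medians of 4.06 in the double, 3.81 in the stathmin and 3.85 in the p27 knockout and of 3.85 in wild type. The p27 knockout ran from -0.08 in replicate 6 to 4.54 in replicate 4, and the other genotypes lay within 2.41 to 4.34. The double minus p27 difference was 0.77 (95% interval -0.32 to 1.86, limma adjusted p = 0.270), 0.25 on the 22 arrays and 0.10 without replicate 6 alone. It passed with Cy5 alone (1.59, limma adjusted p = 0.0353) and in the authors' deposited table (2.19, 0.00195). The other Nkg7 probe gave 0.98 (limma adjusted p = 0.0742 over all probes), and the probes correlated by 0.891 over 22 arrays.

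Fasl, the ligand of the death receptor Fas, was higher in the double knockout on 1 of its 2 probes. On the probe with 10 spots per array the log2 ratio ran from 0.57 over a median of 1.42 to 2.18 in wild type, from 0.82 over 1.43 to 1.57 in the p27 knockout, from 0.58 over 2.06 to 2.63 with stathmin lost and from 1.80 over 2.67 to 2.95 in the double knockout. The p27 and double knockout arrays did not overlap, and the stathmin knockout arrays overlapped both. The difference was 1.19 ± 0.32, 2.28-fold (limma adjusted p = 0.0110), above 0 on 6 of 6 slides. It was 1.25 ± 0.36 without p27 knockout replicates 5 and 6 (limma adjusted p = 0.0299). The SD between the 10 spots of an array had a median of 0.16 on the log2 scale and reached 0.47.

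The other Fasl probe, with 1 spot, showed a smaller difference that did not pass, 0.60 (95% interval -0.06 to 1.27, limma adjusted p = 0.153 over all probes). The Fasl probes correlated by 0.738 over 22 arrays. On the probe with 10 spots the means were 1.32 ± 0.27 (SD, n = 6) in the p27 knockout, then 1.34 ± 0.59 in wild type, 1.86 ± 0.81 with stathmin lost and 2.50 ± 0.44 with both genes lost. No neighbours in that order differed by the test (limma adjusted p = 0.961, 1.00 and 1.00).

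Xcl1, the chemokine that draws cross-presenting dendritic cells through its receptor Xcr1, was higher in the double knockout by 3.23-fold. Its log2 ratio ran from 0.81 over a median of 2.59 to 3.14 in wild type, from 0.09 over 1.71 to 3.12 in the p27 knockout, from 1.40 over 3.15 to 3.39 with stathmin lost and from 2.86 over 3.47 to 3.98 in the double knockout. The double and p27 knockouts overlapped at the 2 highest p27 knockout arrays, replicates 2 and 4. The difference was 1.69 ± 0.45 (limma adjusted p = 0.0114), above 0 on 6 of 6 slides. Without p27 knockout replicates 5 and 6 it was 1.11 ± 0.43, 2.16-fold, and no longer passed (limma adjusted p = 0.0769). The order of means, 1.78 ± 1.13 (SD, n = 6, p27 knockout), 2.40 ± 0.85 (wild type), 2.83 ± 0.75 (stathmin knockout) and 3.48 ± 0.43 (double knockout), was that of Gzmb, and again no neighbours differed by the test.

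Ccl5, a chemokine for T cells and natural killer cells that is also made by fibroblasts, did not pass in any comparison. Its brighter probe had medians of 0.73 in the double, 0.21 in the stathmin and 0.56 in the p27 knockout and of 0.62 in wild type. All 4 genotypes overlapped, and wild type alone ran from -1.24 to 1.68. The double minus wild type difference was 0.28 (95% interval -0.75 to 1.31, limma adjusted p = 1.00). The other Ccl5 probe correlated with it by 0.982 over 22 arrays and gave 0.48 for the same comparison (limma adjusted p = 1.00 over all probes). Between the double and the p27 knockout the brighter probe gave 0.27 (95% interval -0.76 to 1.30, limma adjusted p = 0.696). The probes differed there. Means in the double and the p27 knockout were 0.67 ± 0.55 and 0.40 ± 0.48 (SD, n = 6) on the brighter probe. On the other probe they were 1.76 ± 0.65 and 0.73 ± 0.71.

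The transcription factors passed nowhere. Tbx21 had medians of 3.57 in the double, 3.23 in the stathmin and 3.31 in the p27 knockout and of 2.93 in wild type, with overlap between all genotypes. The p27 knockout held the highest and the lowest array of all 24, replicate 5 at 5.90 and replicate 6 at 0.53. The double minus p27 difference was 0.06 (95% interval -1.04 to 1.17, limma adjusted p = 0.936), and 0.02 on the 22 arrays. Eomes had medians of 1.13 in the double, 0.59 in the stathmin and 0.48 in the p27 knockout and of 0.16 in wild type, and its highest array was p27 knockout replicate 6 at 2.23. Its double minus p27 difference was 0.30 (95% interval -0.51 to 1.11, limma adjusted p = 0.579), and 0.67 on the 22 arrays (0.201).

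**Figure D2:**
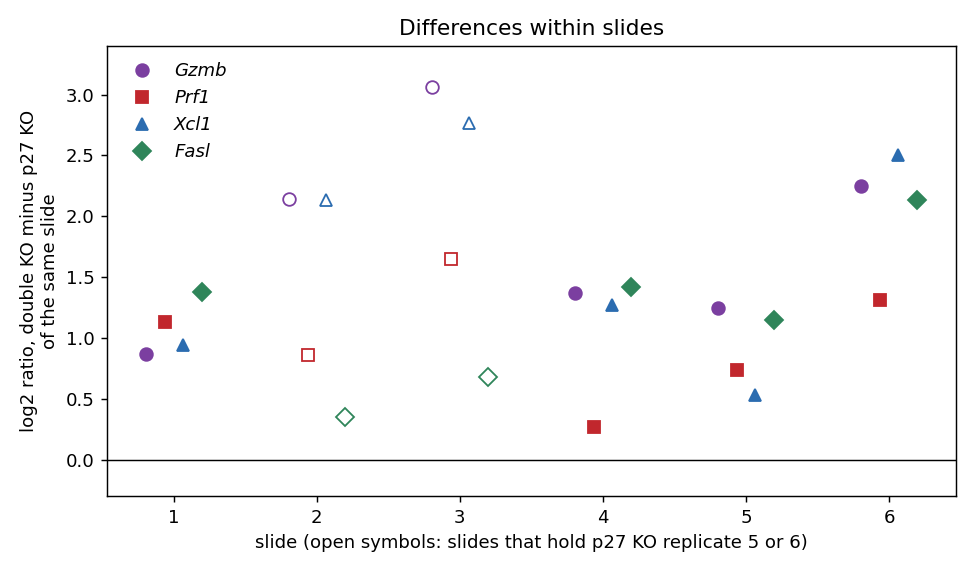
Difference in log2 ratio between the double and the p27 knockout array of the same slide, for the 4 genes that passed; open symbols mark the slides of p27 knockout replicates 5 and 6. All 24 differences lie above 0, from 0.27 for Prf1 on slide 4 to 3.06 for Gzmb on slide 3.

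The levels of these genes tracked the brightness of the array to different degrees. The correlation of the log2 ratio with the log2 of the 99th percentile of Cy5 intensity, over 24 arrays, was 0.842 for Gzmb, 0.835 for Xcl1, 0.793 for Prf1 and 0.555 for Fasl. Over the 22 arrays without p27 knockout replicates 5 and 6 it was 0.668 for Gzmb, 0.703 for Xcl1, 0.686 for Prf1 and 0.693 for Fasl. Of the genes that did not pass, Nkg7 had 0.645 over 24 arrays and 0.485 over 22, Gzma 0.550 and -0.107, Ccl5 0.292 and 0.548, Tbx21 0.246 and 0.257, and Eomes -0.00613 and 0.482. Tracking brightness was therefore not particular to the 4 genes. These points share the genotypes, and genotype and brightness moved together.

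With the log2 brightness of each array as a covariate, a fit chosen after the data were seen, none of the 4 differences between the double and the p27 knockout passed the test. Gzmb was then 0.53 ± 0.35 (limma adjusted p = 0.636), Fasl 0.68 ± 0.40 (0.631), Xcl1 0.17 ± 0.40 (0.889) and Prf1 -0.11 ± 0.33 (0.916). In that fit 0.00% of all genes passed this comparison, 0 of 24784 by limma, where 1728 genes and 0 of the 9 effector genes had an unadjusted p under 0.05. Since no double knockout array was as dim as any p27 knockout array, brightness and genotype cannot be told apart in this comparison.

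**Figure D3:**
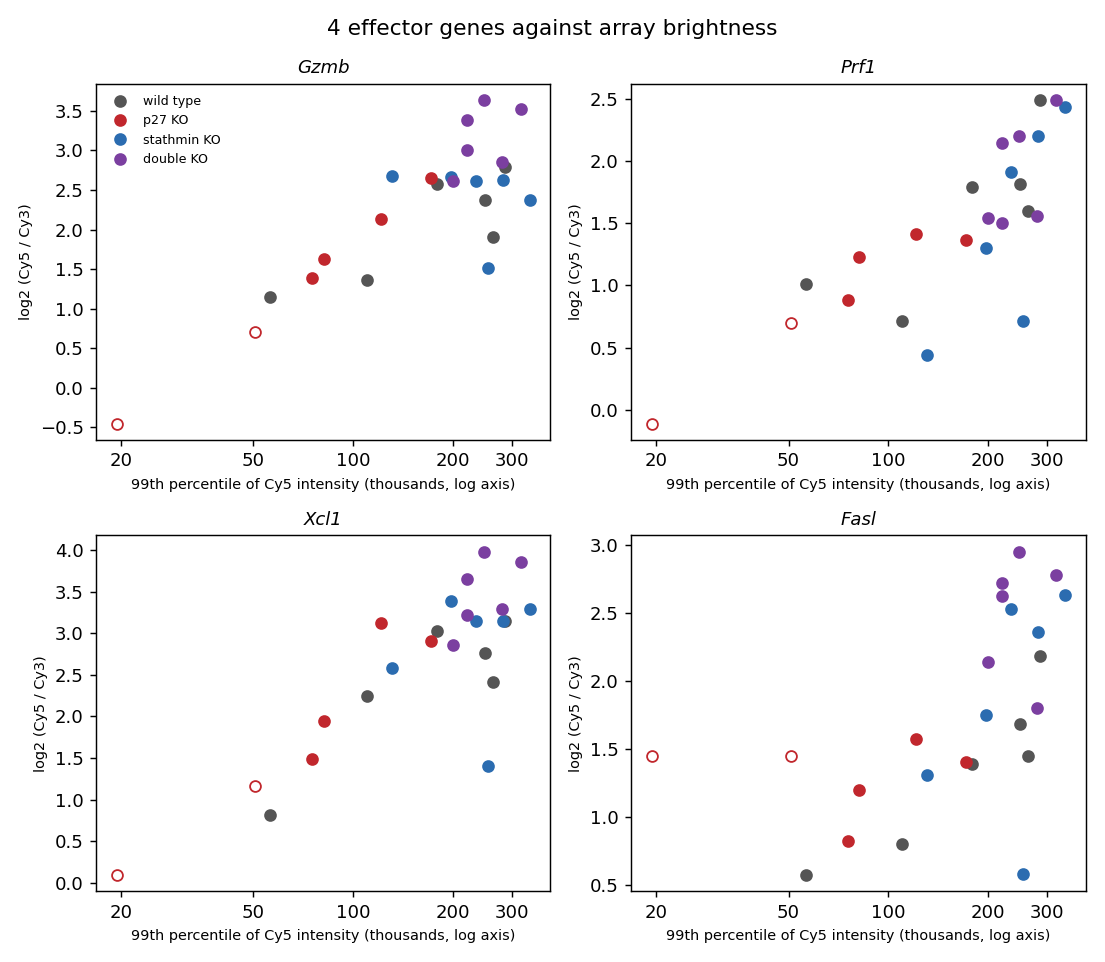
Log2 ratio of Gzmb, Prf1, Xcl1 and Fasl against the 99th percentile of Cy5 intensity of the same array (kilounits, log axis), 24 arrays coloured by genotype, with p27 knockout replicates 5 and 6 open. The p27 knockout arrays end at 171 kilounits and the double knockout arrays begin at 200.

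**Figure D4:**
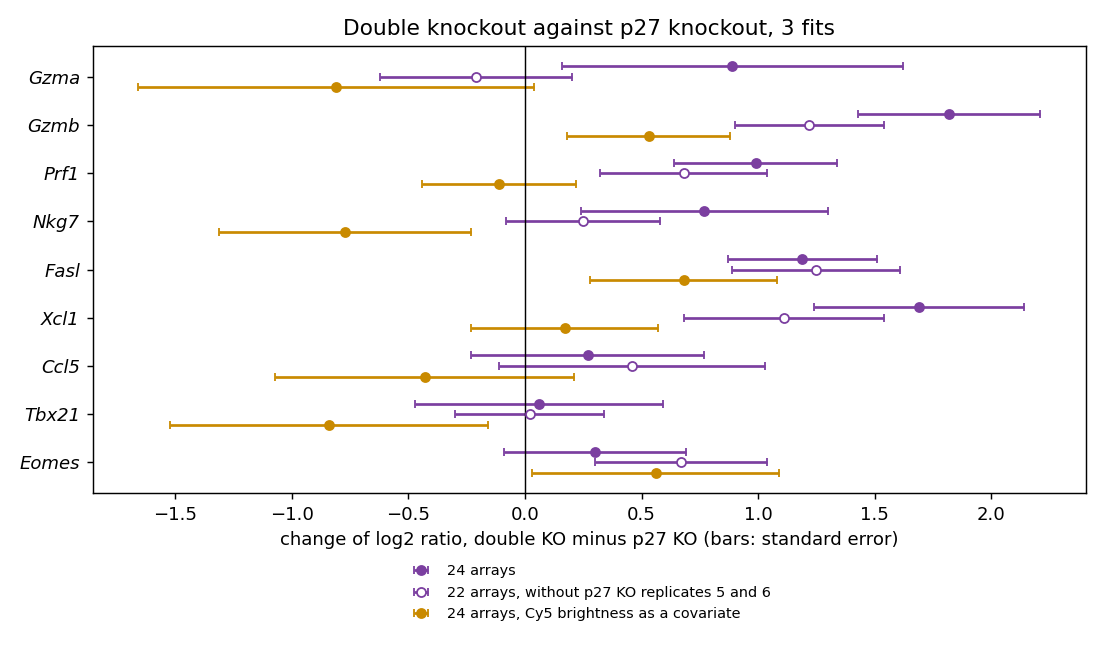
Change of the log2 ratio between the double and the p27 knockout for 9 genes with its standard error, over 24 arrays, over 22 arrays, and over 24 arrays with brightness as a covariate. Gzmb is 1.82, 1.22 and 0.53 in the 3 fits, and Prf1 is 0.99, 0.68 and -0.11.

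Against wild type, the effector genes of the double knockout all had a difference above 0 in the fit reported, but none passed. The median difference of the 9 genes was 0.43, with 9 of 9 above 0, where the median of all genes was -0.04 and 44.4% lay above 0. Under the alternatives, brightness included, the lowest difference was -0.32 for Eomes, -0.31 for Gzma and -0.23 for Ccl5. For Prf1 and Nkg7 it was -0.20 and -0.05. It stayed above 0 for Gzmb (0.44), Fasl (0.45), Tbx21 (0.12) and Xcl1 (0.11). By limma 0 of 9 genes passed, against 0.0121% of all genes. At an unadjusted p under 0.05 there were 3 of 9, where 4.73% of all genes were: Fasl at 1.16 ± 0.32 (unadjusted p = 0.00127, adjusted 0.260), Gzmb at 1.14 ± 0.39 (0.00800, adjusted 0.560) and Xcl1 at 1.08 ± 0.45 (0.0265, adjusted 0.911). On the slides Gzmb and Xcl1 were above wild type on 6 of 6 and Fasl on 5 of 6. This comparison holds no p27 knockout array, and the double knockout and wild type arrays overlapped in brightness only in part. Wild type replicates 1, 4 and 6, at 179, 56.3 and 110 kilounits, were dimmer than every double knockout array, which began at 200. Replicates 4 and 6 held the lowest wild type values of Gzmb (1.15 and 1.36), Xcl1 (0.81 and 2.24) and Fasl (0.57 and 0.80). The part of brightness in this comparison was not settled. With brightness as a covariate Fasl was 1.00 ± 0.31 (limma adjusted p = 0.385), Gzmb 0.73 ± 0.27 (0.621) and Xcl1 0.60 ± 0.31 (0.952). With the array weights of limma Gzmb and Fasl passed, at 1.06 (adjusted p = 0.0241) and 1.12 (adjusted p = 0.0300). Under those weights 360 of all genes passed, 310 of them higher, against 3 in the fit reported, 1 of them higher. More calls with array weights were therefore not particular to Gzmb and Fasl. Over the other alternatives the adjusted p of Gzmb ran from 0.113 to 1.00. That of Fasl, with 1 array left out at a time included, ran from 0.111 to 1.00.

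In the p27 knockout 0 of 9 genes passed by limma, against 0.00807% of all genes, and 0 had an unadjusted p under 0.05, where 28.9% of all genes did. The count over all genes was unstable: leaving out wild type replicate 6 gave 2388, and leaving out p27 knockout replicate 1, 2 or 4 gave 2539, 1636 and 2810, while the count of effector genes was 0 in each of the 24 fits that left out 1 array. The 9 differences ran from -0.68 for Gzmb to 0.51 for Tbx21, and from -0.35 to 0.55 without replicates 5 and 6. In the stathmin knockout 0 of 9 passed, against 0.00% of all genes, and 0 had an unadjusted p under 0.05 (2.75% of all genes), with differences from -0.07 for Prf1 to 0.52 for Fasl. Between the double and the stathmin knockout 0 of 9 passed, against 0.00807%, and 0 had an unadjusted p under 0.05 (1.28% of all genes). All 9 differences were above 0, from 0.11 for Gzma to 0.76 for Gzmb, but they leaned on slide 1, which holds stathmin knockout replicate 1. Gzma was above 0 on 1 of 6 slides, slide 1 at 2.56, and went down to -0.31 with 1 array left out. Slide 1 also held the largest differences of Gzmb (2.01), Xcl1 (2.45), Fasl (2.20) and Prf1 (1.77). The interaction, which asks whether the double knockout departs from the sum of the single knockouts, passed for 0 of 9 genes and 0.00% of all genes. Its unadjusted p was under 0.05 for 2 genes, Gzmb (1.44 ± 0.56, adjusted p = 0.264) and Prf1 (1.06 ± 0.49, adjusted p = 0.270), where 17.8% of all genes were. On the 22 arrays the interaction was 0.83 for Gzmb (adjusted p = 0.486) and 0.75 for Prf1 (0.506). The comparisons share arrays, and their counts are therefore not independent.

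The other genes of the cytotoxic programme moved in mixed directions between the double and the p27 knockout. Of 18 measured granule and death ligand genes, 6 rose and 2 fell, with a median change of 0.87 where that of all genes was -0.16. The counts of this and the following lists stand against 9.70% of all genes called higher and 28.8% called in either direction. Gzmc, a granzyme of activated killer cells, was higher by 0.97 ± 0.21 (limma adjusted p = 0.00436) and Stx11, a syntaxin of granule release, by 1.01 ± 0.24 (0.00623). Gzme, another granzyme of the same gene cluster, fell by 2.01 (0.00515). Without p27 knockout replicates 5 and 6 the counts were 3 and 1, and all 3 of these genes still passed.

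Of 12 measured transcription factors 1 rose and 1 fell, a smaller share than over all genes. Runx3, which with T-bet sets the cytotoxic programme, was higher by 2.41 ± 0.36, 5.30-fold (limma adjusted p = 0.00152), and by 2.05 without replicates 5 and 6 (0.0164). Nfil3, needed for early natural killer cells, fell by 1.19 (0.0245) and did not pass without those replicates (0.145). Of 14 natural killer receptors and adaptors outside chromosome 6, 3 rose and 1 fell, about the share over all genes. On the 22 arrays 2 rose and 2 fell, a larger share than over all genes there. Cd160, a receptor of cytotoxic lymphocytes, was higher by 1.65 ± 0.30 (0.00422) and Sh2d1b1, the adaptor EAT-2, by 1.07 ± 0.23 (0.00431), while Ncam1 fell by 1.81 (0.00887), all by limma. On the 22 arrays these were 1.65 (0.0205) for Cd160, 0.92 (0.0248) for Sh2d1b1 and -1.15 (0.0490) for Ncam1.

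Of 19 measured receptors on chromosome 6, the chromosome that also carries Cdkn1b, 5 were higher and 0 lower in the double than in the p27 knockout, over 24 and over 22 arrays. Klrc1, an inhibitory receptor subunit, was higher by 2.60 ± 0.49 (limma adjusted p = 0.00422), Klra6 by 1.53 ± 0.32 (0.00431) and Klra5 by 0.95 ± 0.26 (0.0130). Over 22 arrays they were 2.10 (0.0224), 1.29 (0.0248) and 0.89 (0.0439). This was the list with calls in other comparisons. Klra9 and Klra10 fell in the p27 knockout against wild type, by 2.63 and 2.82 (adjusted p = 0.0308 each), and Klra10 fell by 3.17 in the double against the stathmin knockout (0.0101). On 22 arrays the differences between the p27 knockout and wild type were -2.58 (adjusted p = 0.0943) for Klra9 and -2.73 (0.129) for Klra10. That of Klra10 between the double and the stathmin knockout was -3.17 and still passed (0.0215). Ly49 genes are near-identical copies, and a probe of 1 may read another.

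Of 20 chemokine, cytokine and receptor genes 5 rose and 4 fell, and on the 22 arrays 2 rose and 3 fell. The chemokine receptor Ccr3 was higher by 1.60 ± 0.26 (limma adjusted p = 0.00274) and the interleukin 12 receptor chain Il12rb2 by 1.26 ± 0.24 (0.00422). Xcr1, the receptor for Xcl1, fell by 1.99 (0.00614), opposite to its ligand, while Clec9a and Flt3, which like Xcr1 are listed as dendritic cell markers, were higher by 1.48 ± 0.35 (0.00672) and 1.68 ± 0.45 (0.0117). On the 22 arrays Ccr3 was 1.46 (0.0189), Il12rb2 1.15 (0.0217), Xcr1 -1.49 (0.0299), Clec9a 1.41 (0.0293) and Flt3 1.60 (0.0454), each still past the threshold. Of 8 dendritic cell markers 2 rose and 2 fell, over 24 and over 22 arrays.

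Markers of other cell types moved in the same comparison. Fat cell markers rose (4 of 8, median change 1.43, with Scd1 higher by 3.05 ± 0.63, limma adjusted p = 0.00431), and their median log2 ratio per array ran from -0.13 to 4.66 in the p27 knockout and from 3.70 to 5.80 in the double knockout. The value of -0.13 was replicate 6, and without replicates 5 and 6 the p27 knockout began at 2.30. Fibroblast markers fell (6 of 9, median -1.25), with Serpinf1, Col1a1 and Fn1 lower by 1.46 to 1.60 and array medians of -3.50 to -0.98 in the p27 and -4.14 to -2.74 in the double knockout. The value of -0.98 was again replicate 6. Macrophage markers rose for 2 of 10 (C1qa by 1.70 and C1qb by 1.12). Of gamma delta and NKT markers 2 of 5 rose (Sox13 by 1.10, Blk by 1.65) and 1 fell (Maf by 1.83). Ms4a4b was the 1 of 10 mature T cell markers that rose (1.84, limma adjusted p = 0.0230). Neither 10 double-positive thymocyte nor 8 B cell markers passed in the fit over 24 arrays, where Cd4 and Cd22, with the lowest p, were 1.89 (adjusted p = 0.0632) and 1.72 (0.0517). On the 22 arrays, 7 of 10 double-positive markers fell, 0 of 10 mature T cell markers rose and 2 fell, 0 of 5 gamma delta and NKT markers rose and 1 fell, 1 of 10 macrophage and 1 of 8 fat cell markers rose, and 0 of 9 fibroblast and 0 of 8 B cell markers passed by limma. Of the genes named in this paragraph Scd1 (2.61, 0.0269) and C1qa (1.12, 0.0374) then still passed, and Ms4a4b (1.11, 0.166), Sox13 (0.81, 0.0575), Blk (1.55, 0.0772), Maf (-1.04, 0.0892), C1qb (0.79, 0.101), Serpinf1 (-0.96, 0.0685), Col1a1 (-0.94, 0.102) and Fn1 (-0.80, 0.106) did not. The part of these cell types in the effector genes was not tested.

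**Figure D5:**
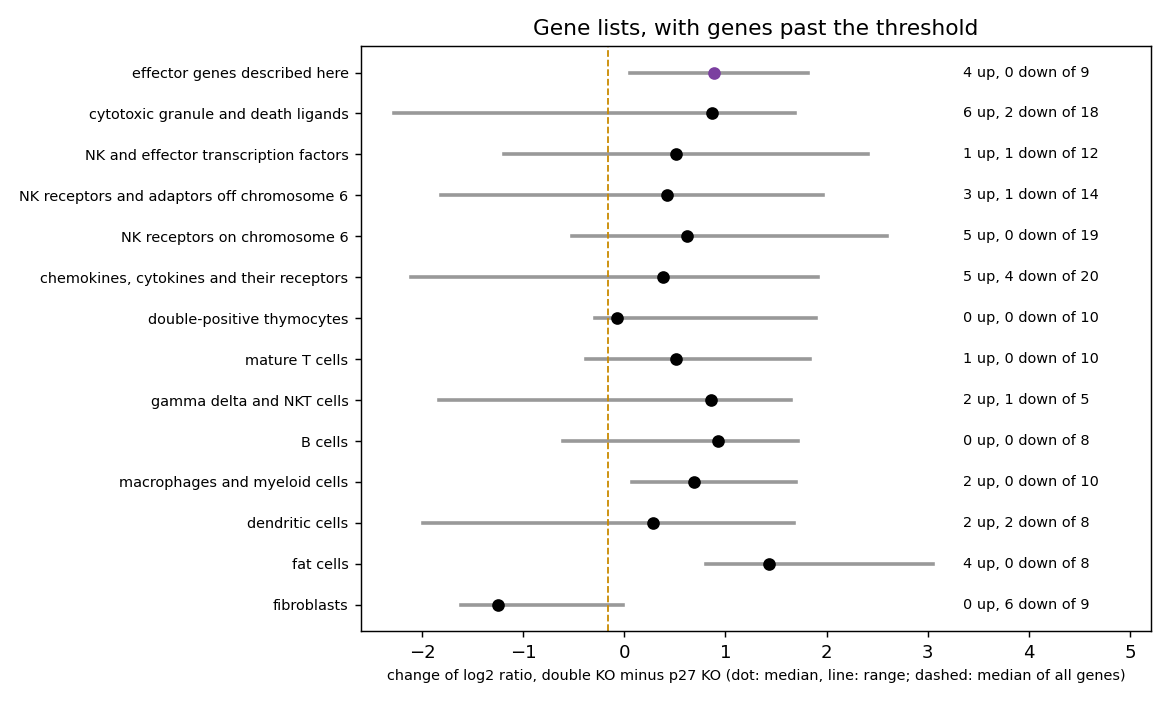
Change of the log2 ratio between the double and the p27 knockout for 14 gene lists over 24 arrays; the dot is the median of the list, the line its range and the dashed line the median of all genes, with the number of genes past the threshold in each direction. The effector genes have a median of 0.89 with 4 higher of 9, and fat cell markers a median of 1.43 with 4 higher of 8.

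The effector genes varied together from mouse to mouse to different degrees. Over the 22 arrays, with genotype means removed, Gzmb and Xcl1 correlated by 0.884, Prf1 and Fasl by 0.890 and Xcl1 and Fasl by 0.810. Xcl1 and Nkg7 correlated by 0.803, above Gzmb and Prf1 at 0.644. Eomes and Ccl5 correlated by 0.742 and Gzma and Tbx21 by 0.673, while Gzma and Prf1 reached 0.0950 and Gzma and Ccl5 0.0146. These are descriptions over arrays that share brightness and slide. With genotype means left in, the correlation of Gzma and Nkg7 was 0.433 over 22 arrays and 0.833 over 24, and that of Gzmb and Eomes was 0.378 and -0.0418. For these pairs the values over 24 rest on the arrays that stood apart. Other pairs changed little, such as Gzmb and Xcl1 (0.916 over 22 and 0.949 over 24) and Gzma and Tbx21 (0.672 and 0.652).

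Leaving out clones and predicted genes, the genes outside the group whose levels were most like its mean profile over the 22 arrays were Cst7 (r = 0.941), Ifng (0.938), Entpd1 (0.932), Fgd5 (0.918), Klrd1 (0.916), Bcl2l14 (0.903), Lamb3 (0.900) and Fabp1 (0.897). Cst7 encodes cystatin F, an inhibitor of granule proteases, Ifng is interferon gamma, and Klrd1 is CD94, a receptor chain of natural killer cells. The profile itself correlated with array brightness by 0.650 over the same arrays, and these 8 genes by 0.558 to 0.794. Xcl1 (0.945) and Fasl (0.876) lay closest to the profile they are part of, and Gzma (0.475) farthest.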

How the data were processed

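Per the labels, column-purified thymus RNA was amplified, coupled to Cy5 and hybridised with a Cy3 fibroblast pool on 2-colour Agilent arrays. For each array the authors deposited the scanner output. Per the file headers, its spot and local background intensity values come from Agilent Feature Extraction 9.1.3.1, with no background subtracted. The deposited log10 ratios were dye-normalized, per the file headers. The authors also deposited a table of log2 values, with its making not stated in the labels or headers. Its column medians ran from 8.62 to 10.56, and its columns follow the mean of both channels (r of at least 0.9999 with it, at most 0.0670 with the ratio), so its scale is log2 and brightness, and its centring stays unknown.

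From the intensities, log2 Cy5 over Cy3 was computed with limma 3.58.1 in R 4.3.3: normexp (offset 50), loess within arrays with control spots at weight 0, marked outliers (a mean of 68.4 and a maximum of 314 spots on an array) left out, and replicate spots averaged. Of 45018 spots per array, 43379 were gene spots of 41174 probes. Accessions of 22951 probes took symbols from the RefSeq gene table (GRCm38.p6), and 18223 kept the file's name. The filter took the 35185 probes with Cy5 well above background on 6 or more of the 24 arrays, and each of 24784 genes was read from its brightest probe. The number of arrays limits the precision. No pair of arrays was identical (0 pairs).

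Groups came from the labels. Genotypes were compared by limma's moderated test, fitted to all 24 arrays with no other term and checked on simulated data. The simulated noise was independent between genes and arrays, with no effect of brightness, slide or an outlying array. The check therefore does not cover those effects. The p values were adjusted by Benjamini and Hochberg across the 24784 genes, with a threshold of 0.05. All adjusted p values are limma's. A change is on the log2 scale, and ± is the SE of a change or the SD of a mean. The rule for named genes was every probe of the 10 genes, up to 3 passing genes per other list and comparison (or the 2 of lowest p in a list with none), and the 8 genes most like the group's mean profile (clones and predicted genes left out), each gene scaled to SD 1. The members, the 13 other lists and the tests were chosen with earlier results of these data known. Sequences are RefSeq's. Alternatives were no background correction, Agilent's log ratios, Cy5 alone with quantile normalization, the authors' table, no filter, each probe separately, slide or replicate number as a block, array weights, and arrays left out. Array brightness as a covariate was added after seeing the data. Replicate numbers were not taken to pair mice: deviations of same-numbered arrays correlated above 0.1 in 15 of 36 pairs. Outside the p27 knockout, same-numbered arrays shared a slide. Arrays of the same slide correlated above 0.1 in 21 of 36 pairs, with a median of 0.143 against -0.0264 for other pairs. The fit reported holds no slide term.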

Additional observations from a re-analysis of the deposited data

Results flagged for a closer look

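In 8 of 36 groups of 6 arrays (9 genes in 4 genotypes), 1 array lay apart from the other 5 by a gap that, over the group's whole range, was above Dixon's 95% critical value. Chance alone marks about 1 in 20 groups. In the p27 knockout, replicate 6 held 3 of them: Gzma at 0.23 against 5.49 to 6.65 in the other mice, Nkg7 at -0.08 against 2.90 to 4.54, and Eomes at 2.23 against -0.25 to 0.62. That array was the dimmest of the 24, and its markers of double-positive thymocytes were also near the level of the fibroblast pool.

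Stathmin knockout replicate 1 held 3 more, with Gzma at 3.77 against 5.74 to 6.89, Gzmb at 1.51 against 2.38 to 2.68 and Tbx21 at 2.03 against 3.13 to 3.59. Its Cy5 99th percentile, 254 kilounits, was within the range of its group. These low values depended on the processing. With Cy5 alone that array had Gzmb at 11.25 against 10.70 to 11.59 and Tbx21 at 11.85 against 11.16 to 12.15. Gzma was then 13.58 against 13.65 to 14.29. With Agilent's log ratios its median over the effector genes was 4.04, in a group of 3.24 to 4.25, where the main ratio gave 1.40. The remaining outlying values were Tbx21 in double knockout replicate 3, at 2.34 against 3.27 to 3.74, and Eomes in wild type replicate 2, at 1.82 against 0.09 to 0.69. The cause of these values was not tested.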

How the results depend on the processing

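Between the double and the p27 knockout, 4 genes of the group passed, and all 4 kept a difference above 0 under each of the 10 alternatives listed before brightness was added (Gzmb 1.20 to 2.52, Xcl1 1.09 to 2.01, Prf1 0.68 to 1.05, Fasl 0.63 to 1.32). No filter, each probe separately, and slide or replicate number as a block gave the same differences as the fit reported. Those alternatives therefore add nothing on the sign. The count that passed was 1 with Agilent's log ratios (Gzmb), 7 in the authors' deposited table, 2 without p27 knockout replicates 5 and 6, 0 with brightness as a covariate and 0 with that covariate without replicates 5 and 6, and 3 to 4 when 1 array was left out. Prf1 turned to -0.11 with brightness as a covariate and to -0.13 without replicates 5 and 6 as well. In the authors' table, which follows brightness, the median of all genes in this comparison was 0.68, and changes there are to be read relative to it. The count of the group in the p27 knockout against wild type was 4 in the authors' table, where 4302 of all genes passed. In the double knockout against wild type it was 2 with array weights, where 360 of all genes passed. Leaving out 1 array gave 0 in all comparisons other than double minus p27. Of these 10 alternatives Gzmb passed in 10, and Xcl1, Prf1 and Fasl in 8 each. With 1 array left out Prf1 passed in 18 of 24 fits and the other 3 genes in 24. Nkg7 passed with Cy5 alone and, with Gzma and Ccl5, in the authors' table.

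Counts over all genes moved as follows. The p27 knockout against wild type had 2, and 9 without background correction, 7 with Cy5 alone, 4302 in the authors' table, 0 with slide as a block, 2873 with array weights, 4 on the 22 arrays without p27 knockout replicates 5 and 6, 0 and 1 when brightness was a covariate on 24 and 22 arrays, and 0 to 2810 with 1 array left out. The stathmin knockout against wild type had 0 by limma (682 at an unadjusted p under 0.05), and 1 without background correction, with Agilent's log ratios, with Cy5 alone, per probe, with the replicate block and with brightness on 22 arrays, 9 with array weights, 3 on 22 arrays, and 0 to 3 with 1 array left out. The double knockout against wild type had 3, and 7 without background correction, 6 with Agilent's log ratios, 5 with Cy5 alone, 1 in the authors' table, 0 with slide as a block, 1 with the replicate block, 360 with array weights, 48 on 22 arrays, 5 and 20 with brightness, and 0 to 26 with 1 array left out, the highest without stathmin knockout replicate 1. The double against the p27 knockout had 7137, and 12891 in the authors' table (12704 higher, against 2403 in the fit reported), 3551 on 22 arrays (2992 of them shared), 0 and 1 with brightness, and 5325 to 8383 with 1 array left out. The double against the stathmin knockout had 2, and 5 without background correction, 6 with Cy5 alone, 1 in the authors' table, with slide as a block, with the replicate block and on 22 arrays, 17 with array weights, and 0 to 3 with 1 array left out. The cause of these shifts was not tested. The replicate block changed no call of the group, with Prf1 at an adjusted p of 0.0351 between the double and the p27 knockout.

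Cy5 signals near background limit Ncr1 and Eomes, and Cy3 near background limits the ratio of Fasl, Eomes, Prf1, Gzma and Xcl1.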
